A study of Homo sapiens with 12 samples.

Results

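The translation initiation and elongation factors are the proteins that start protein synthesis on an mRNA and carry it from codon to codon. The 57 genes described here are those whose symbols start with EIF1 to EIF6, EEF1 or EEF2 and whose mean over the 12 libraries was at least 1 FPKM, a fragment count scaled to transcript length and library size, out of 22650 gene symbols listed in the series. Of 77 symbols with such a start, 60 were left after removal of the EIF2AK kinases, names starting with EEF2K, names with a hyphen and names ending in P and a digit. The last step removes processed copies and also the eIF4E-binding proteins EIF4EBP1, EIF4EBP2 and EIF4EBP3, which are given here as neighbouring genes of the pathway. Besides the kinase EEF2K, the EEF2K step removes EEF2KMT (mean 15.6 FPKM), a methyltransferase gene named for eEF2. The level rule then left out EIF2S3B (mean 0.366 FPKM), EIF4E3 (0.007) and EIF4E1B (0.0037), and the lowest members kept were EIF5AL1 (1.25), EIF3CL (1.92) and EIF3C (1.93).

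The cells were Panc1 and MiaPaCa2, established human lines of pancreatic ductal adenocarcinoma, each as an ASAP2 knockout and as wild-type, with 3 libraries for each of the 4 groups. ASAP2 switches off small GTPases of the Arf family and has roles in membrane traffic and focal adhesions. The labels do not say how the knockout was made, how many clones were used or whether a group stems from separate cultures. The p-values therefore measure only the spread between these libraries, which may be technical, and a clone's own features cannot be told apart from the knockout. ASAP2 had 14.2, 14.5 and 12.7 FPKM in Panc1 knockout libraries, against 38.6, 37.5 and 34.6 FPKM in Panc1 wild-type libraries. In the MiaPaCa2 libraries labelled knockout it had 12.01, 13.8 and 11.3 FPKM, against 13.2, 13.6 and 13.8 FPKM in MiaPaCa2 wild-type libraries (log2 change -0.13, adjusted p = 0.197 in limma), so the level of this mRNA does not tell these groups apart and the protein was not measured.

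Read depth is unknown, since the files hold no counts and no steps of single reads were found in the FPKM values, so no counting interval is given. Libraries of a group correlated across genes at 0.9936 or more, and MiaPaCa2 knockout replicate 2 stood farthest from its group. Keratins KRT8 and KRT18 marked both lines as epithelial, whereas CDH1 was at most 0.372 FPKM on average in any group and EPCAM was listed at 0 in MiaPaCa2. The epithelial markers did not move together. In Panc1 KRT19 fell, with 254 ± 24.0 FPKM in the knockout and 541 ± 2.11 FPKM in wild-type, while KRT8 rose, with 514 ± 16.7 FPKM in the knockout and 372 ± 6.39 FPKM in wild-type, as did KRT18 and EPCAM. KRT8, KRT18 and KRT19 fell in MiaPaCa2. The 6 epithelial markers summed to 1179 ± 59.0 FPKM in Panc1 knockout and 1228 ± 20.6 FPKM in wild-type, and to 884 ± 14.6 FPKM in MiaPaCa2 knockout and 1241 ± 19.5 FPKM in wild-type (SD, n = 3 each), and their part in the results was not tested. The leukocyte marker PTPRC averaged 0.004 FPKM at most in any group. CD68, a macrophage marker, had 164 ± 2.73 FPKM in Panc1 knockout and 175 ± 4.23 FPKM in wild-type, and 18.7 ± 0.531 FPKM in MiaPaCa2 knockout and 26.7 ± 1.5 FPKM in wild-type (SD, n = 3 each). The 3 endothelial markers summed to 0.0253 FPKM at most on average in any group and the fibroblast markers to 0.654 FPKM.

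Initiation begins when eIF4F (the cap-binding protein eIF4E, the scaffold eIF4G and the helicase eIF4A) prepares an mRNA for the small ribosomal subunit, which carries eIF1, eIF1A, eIF3, eIF5 and eIF2 with the initiator tRNA. eIF2B reloads eIF2 with GTP, and phosphorylation of eIF2 blocks eIF2B and slows initiation in stressed cells. eEF1A then brings aminoacyl-tRNA to the ribosome, the eEF1B complex reloads eEF1A, and eEF2 moves the ribosome along. The mRNAs of the elongation factors and of several initiation factors begin with a C and a run of pyrimidines, a 5′ terminal oligopyrimidine (TOP) start through which mTORC1 and the binding protein LARP1 control their translation and stability.

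The starts of 45 members could be read from the RefSeq promoter table (GRCh38.p14). At 12 of these 45 (26.7%) the annotated start was a C followed by at least 4 further C or T bases, read on the transcribed strand alone, against 7.32% of 9917 tested genes with an entry. In the Panc1 knockout 6 of these 12 members rose and 5 fell, where 21.8% of all genes rose and 41.6% fell. EEF1G, with the largest rise of any member there, has an annotated start without this pyrimidine run. EEF1B2 has a second annotated start without the run. Each sequence holds 10 bases before the start and 20 from the start, with the pyrimidine run in capitals.

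EEF1A1, chr6:73521013-73521042, minus strand: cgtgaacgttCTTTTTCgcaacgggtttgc
EEF2, chr19:3985444-3985473, minus strand: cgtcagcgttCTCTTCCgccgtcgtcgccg
EEF1B2, chr2:206159885-206159914, plus strand: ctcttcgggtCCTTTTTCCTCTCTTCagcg
EIF4B, chr12:53006446-53006475, plus strand: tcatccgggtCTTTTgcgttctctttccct
EIF2D, chr1:206612446-206612475, minus strand: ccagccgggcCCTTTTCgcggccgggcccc
EIF3F, chr11:7987327-7987356, plus strand: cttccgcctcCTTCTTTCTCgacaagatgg
EIF3D, chr22:36529147-36529176, minus strand: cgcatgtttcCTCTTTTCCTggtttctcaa
EIF2A, chr3:150546777-150546806, plus strand: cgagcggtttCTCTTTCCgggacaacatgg
EIF2S3, chrX:24054946-24054975, plus strand: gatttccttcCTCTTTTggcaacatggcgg
EIF3K, chr19:38619178-38619207, plus strand: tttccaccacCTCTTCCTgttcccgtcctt
EIF3M, chr11:32583821-32583850, plus strand: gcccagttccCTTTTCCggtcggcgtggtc
EIF4A2, chr3:186783567-186783596, plus strand: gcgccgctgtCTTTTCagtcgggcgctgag

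The starts of 4 members without the run, all taken from the largest changes in Panc1, are given for comparison.

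EEF1G, chr11:62573872-62573901, minus strand: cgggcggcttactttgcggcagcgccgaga
EIF1, chr17:41688875-41688904, plus strand: ccgcccctctgccccagtcactgagccgcc
EIF1AX, chrX:20141819-20141848, minus strand: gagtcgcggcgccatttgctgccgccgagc
EIF4E, chr4:98929114-98929143, minus strand: tggagcggttgtgcgatcagatcgatctaa

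In Panc1, 5 of the 7 elongation factors rose in the knockout (EEF1A1, EEF2, EEF1G, EEF1B2 and EEF1D), EEF1E1 fell and EEF1A2 did not pass the test. Of the 57 members, 18 rose and 24 fell at an adjusted p below 0.05 (73.7%), in a comparison that called 63.5% of all 13340 genes tested, 21.8% as higher and 41.6% as lower. The test was limma on log2(FPKM + 1), a scale that understates the change of low genes, with Benjamini-Hochberg adjustment over all genes. The members' median log2 change stood 0.05 above that of all genes, which was itself -0.10 in Panc1; without wild-type replicate 1 it stood 0.02 above. Between libraries, 20 members were higher in all knockout than in all wild-type values (24.7% of all genes were) and 27 were lower (45.3% were).

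The number of falls depended on the processing, for the members as for all genes. With each library scaled by its median ratio, which sets the median of all genes to 0.00 in Panc1, 26 members rose and 15 fell, and 4271 of all 13340 genes rose and 3922 fell, against 2910 and 5556 as deposited. After a correction within libraries for GC content and length of genes, 23 rose and 11 fell among the 56 members with these measures, and 3609 rose and 3853 fell among all 12441 such genes. Of the 18 that rose, 17 were called higher after that correction, and of the 24 that fell, 10 were called lower. Across the 56 members the Panc1 change had a Spearman rho of 0.54 with GC content, against 0.40 over 12441 genes that share the same libraries, and of 0.37 with mean FPKM, against 0.04.

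**Figure D1:**
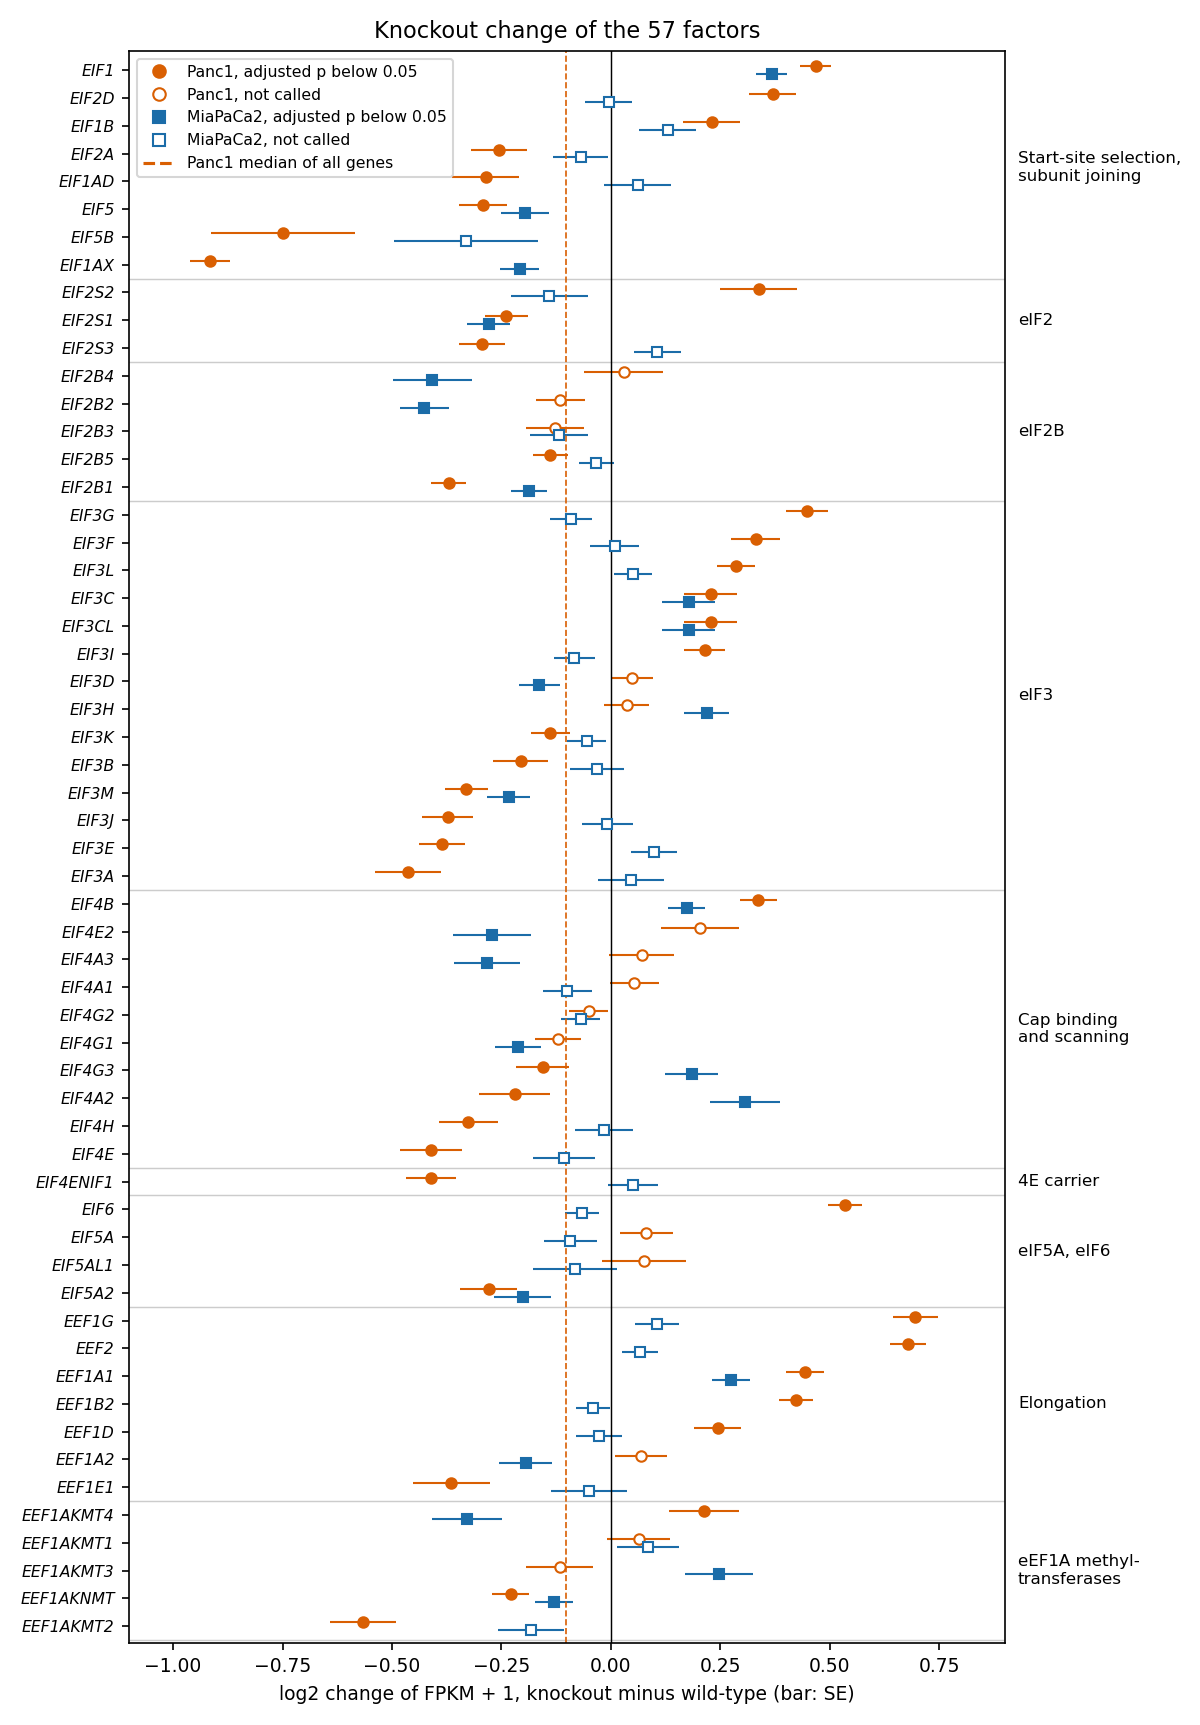
Log2 change of FPKM + 1 (knockout minus wild-type, x axis) of each of the 57 factors, grouped by role down the page, for Panc1 (circles) and MiaPaCa2 (squares), with the SE of the limma fit as bars and filled symbols at an adjusted p below 0.05. In Panc1 the changes run between -0.92 for EIF1AX and 0.70 for EEF1G, in MiaPaCa2 between -0.43 for EIF2B2 and 0.37 for EIF1; the dashed line is the median of all genes in Panc1.

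Among the 7 elongation factors, 5 rose and 1 fell in Panc1, where 21.8% of all genes rose and 41.6% fell. EEF1G, the gamma subunit of the exchange complex that reloads eEF1A, had 767, 837 and 858 FPKM in Panc1 knockout libraries, against 500.2, 503 and 513 FPKM in wild-type libraries. This was the largest rise of any member (log2 change 0.70 ± 0.05 SE, adjusted p = 2.52e-07), with no overlap between the groups. EEF2, the translocase, had 715, 767 and 750 FPKM in the knockout, against 462, 456 and 475 FPKM in wild-type (log2 change 0.68 ± 0.04 SE, adjusted p = 6.03e-08). EEF1A1, the most abundant member, had 2173, 2162 and 2137 FPKM in the knockout, against 1603, 1572 and 1585 FPKM in wild-type (log2 change 0.44 ± 0.04 SE, adjusted p = 2.94e-06). All 3 knockout values lay above all 3 wild-type values for each of these genes. EEF1B2 and EEF1D, the nucleotide-exchanging subunits, rose by 0.42 and 0.24 on the log2 scale. EEF1A2, the eEF1A form otherwise known from muscle and neurons, had 201, 224 and 228 FPKM in the knockout, against 206, 204 and 212 FPKM in wild-type, and did not pass the test (adjusted p = 0.334); its ratio to EEF1A1 was 0.101 ± 0.0074 in the knockout and 0.131 ± 0.0028 in wild-type (SD, n = 3 each). EEF1E1, a scaffold protein of the multi-tRNA-synthetase complex that carries an eEF1 name, fell by 0.36 on the log2 scale (adjusted p = 0.00296), and this was not seen after GC and length correction (0.02, adjusted p = 0.846).

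In sum the 7 elongation factors had 4483 ± 86.6 FPKM in Panc1 knockout and 3208 ± 18.3 FPKM in Panc1 wild-type libraries (SD, n = 3 each). As a share of all FPKM of a library this was 1.17% ± 0.018 in the knockout and 0.884% ± 0.0034 in wild-type. The 5 members that rose in Panc1 were called in all alternative settings run. EEF1A1 has 49 processed copies named in GENCODE and EEF1G, EEF1B2 and EEF1D have 8 each, and the handling of multiply mapping reads is not stated, so their levels may be split with these copies; none is named for EEF2.

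**Figure D2:**
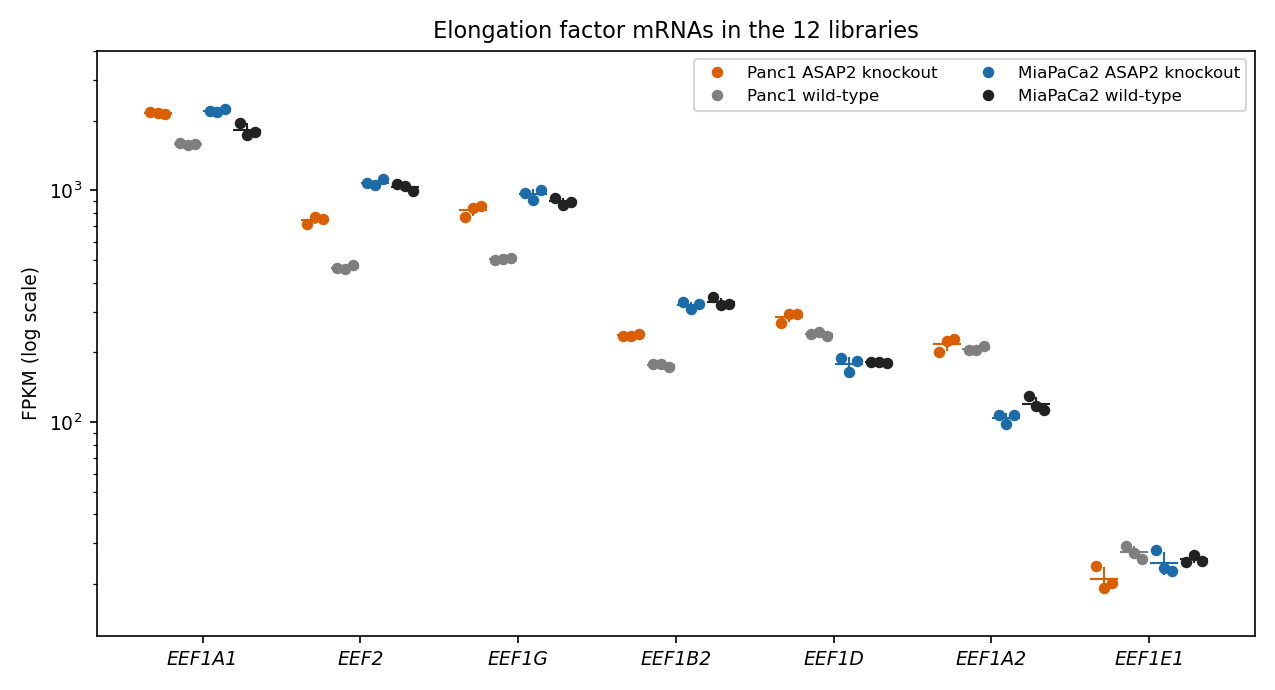
FPKM (log axis) of the 7 elongation factors in each of the 12 libraries, by gene, with Panc1 knockout, Panc1 wild-type, MiaPaCa2 knockout and MiaPaCa2 wild-type side by side; horizontal marks are group means and vertical bars the SD (n = 3). EEF2 averaged 744 FPKM in Panc1 knockout and 464 FPKM in Panc1 wild-type libraries, while its MiaPaCa2 groups overlapped.

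In MiaPaCa2, EEF1A1 was the single elongation factor that rose, with 2207, 2180 and 2232 FPKM in the knockout, against 1960, 1740 and 1777 FPKM in wild-type (log2 change 0.28 ± 0.04 SE, adjusted p = 0.000522). EEF2 had 1072, 1050 and 1117 FPKM in the knockout, against 1060, 1044 and 989 FPKM in wild-type, values that overlap (adjusted p = 0.251). The log2 change of EEF1G was 0.11 (adjusted p = 0.133; without knockout replicate 2 it was 0.15, adjusted p = 0.0397). EEF1A2 fell by 0.19 (adjusted p = 0.0243), a call lost without wild-type replicate 1 (adjusted p = 0.0922), without knockout replicate 2 (0.0807) and after GC and length correction (0.0504). The sum of the 7 genes was 4878 ± 133 FPKM in the knockout and 4409 ± 195 FPKM in wild-type (SD, n = 3 each). As deposited, the change differed between the lines for all 7, tested as the Panc1 change minus the MiaPaCa2 change (57.4% of all genes were called in that test). It was higher in Panc1 by 0.61 for EEF2, 0.59 for EEF1G and 0.46 for EEF1B2, and lower for EEF1E1 alone (-0.31, adjusted p = 0.0455). The EEF1E1 difference was 0.07 after GC and length correction (adjusted p = 0.614). For EEF1A1 the difference was 0.17 (adjusted p = 0.034), which was lost in most alternatives, among them each Panc1 library left out in turn (adjusted p = 0.0542 to 0.0738).

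The 8 genes listed for start-site selection and subunit joining split in Panc1, with 3 higher and 5 lower. Of all genes, 21.8% were higher there and 41.6% lower. EIF1, which guards the fidelity of start-codon choice, had 288, 286 and 274 FPKM in Panc1 knockout, against 202, 202 and 208 FPKM in wild-type libraries (log2 change 0.47 ± 0.03 SE, adjusted p = 2.71e-07). It also rose in MiaPaCa2, with 260, 273 and 265 FPKM in the knockout, against 208, 203 and 207 FPKM in wild-type (log2 change 0.37 ± 0.03 SE, adjusted p = 1.01e-05). The groups did not overlap in either line, and the difference between the lines did not pass the test (0.10, adjusted p = 0.0952). EIF1AX, the X-linked gene of eIF1A, which helps the scanning ribosome settle on the start codon, had 6.83, 7.41 and 7.11 FPKM in Panc1 knockout, against 14.1, 13.9 and 14.9 FPKM in wild-type (log2 change -0.92 ± 0.05 SE, adjusted p = 9.17e-09). This was the largest fall of any member; it was -0.51 after GC and length correction (adjusted p = 4.04e-05). In MiaPaCa2 EIF1AX had 38.0, 36.3 and 37.6 FPKM in the knockout, against 41.9, 43.1 and 44.7 FPKM in wild-type (log2 change -0.21 ± 0.05 SE, adjusted p = 0.00386), and the difference between the lines was -0.71 (adjusted p = 2.74e-06).

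EIF5B, the GTPase that joins the ribosomal subunits, had 13.02, 12.1 and 10.95 FPKM in Panc1 knockout, against 21.4, 23.7 and 17.8 FPKM in wild-type libraries (log2 change -0.75 ± 0.16 SE, adjusted p = 0.00159). In MiaPaCa2 its knockout values were 29.9, 33.4 and 19.03 FPKM and its wild-type values 35.5, 30.7 and 35.8 FPKM, which overlap (adjusted p = 0.144; -0.49 without knockout replicate 2, adjusted p = 0.0382). EIF5, which makes eIF2 hydrolyse its GTP, fell by 0.29 in Panc1, a call lost after GC and length correction (-0.03, adjusted p = 0.619). In MiaPaCa2 it fell by 0.20 (adjusted p = 0.0156), a call lost in 5 alternatives, among them without wild-type replicate 2, wild-type replicate 3 or knockout replicate 3 (adjusted p up to 0.121 over the alternatives). Of the 37 other tested genes that start within 2 Mb of EIF5, 34 were also below the median of all genes in MiaPaCa2. Relative to all genes their median was -0.32 and EIF5 stood at -0.21. Their part in this fall was not tested. EIF2D, which can bring initiator tRNA to the ribosome without eIF2, rose by 0.37 in Panc1 and had a log2 change of -0.00 in MiaPaCa2 (adjusted p = 0.965). EIF1B, a close relative of EIF1, rose by 0.23 in Panc1 (0.16 and not called on the TPM scale), and EIF1AD and EIF2A fell by 0.29 and 0.26. The EIF2A fall was not seen after GC and length correction (0.05, adjusted p = 0.329).

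The 3 subunits of eIF2 did not move together. EIF2S2, the beta subunit, had 61.1, 52.7 and 49.4 FPKM in Panc1 knockout, against 44.4, 45.5 and 38.4 FPKM in wild-type (log2 change 0.34 ± 0.09 SE, adjusted p = 0.00505). EIF2S1, the alpha subunit that stress kinases phosphorylate, had 20.5, 18.8 and 18.2 FPKM in the knockout, against 22.4, 23.8 and 22.2 FPKM in wild-type (log2 change -0.24 ± 0.05 SE, adjusted p = 0.00107), and EIF2S3, the GTP-binding gamma subunit, fell by 0.29. Both falls were lost after GC and length correction (0.09 and -0.05), and that of EIF2S1 also under median ratio scaling (adjusted p = 0.0567). In MiaPaCa2 EIF2S1 had 28.4, 28.2 and 28.6 FPKM in the knockout, against 34.7, 33.3 and 36.0 FPKM in wild-type (log2 change -0.28 ± 0.05 SE, adjusted p = 0.00111), and neither of the other subunits passed the test. The summed level of the 3 subunits was 115 ± 9.38 FPKM in Panc1 knockout and 116 ± 3.61 FPKM in wild-type libraries, and 217 ± 8.28 FPKM in MiaPaCa2 knockout and 219 ± 11.2 FPKM in wild-type libraries (SD, n = 3 each).

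eIF2B, the exchange factor of eIF2, was lower in the MiaPaCa2 knockout for 3 of its 5 subunits, where 16.3% of all genes were called lower. EIF2B2 had 15.6, 13.3 and 14.2 FPKM in the MiaPaCa2 knockout, against 19.6, 19.8 and 19.6 FPKM in wild-type libraries (log2 change -0.43 ± 0.06 SE, adjusted p = 0.00015), the largest fall of a member in that line. EIF2B4 had 20.8, 16.2 and 21.8 FPKM in the knockout, against 26.9, 24.8 and 26.6 FPKM in wild-type (log2 change -0.41 ± 0.09 SE, adjusted p = 0.00442). Neither group pair overlapped, and in Panc1 neither gene passed the test. The change of EIF2B2 was 0.31 higher in Panc1 than in MiaPaCa2 and that of EIF2B4 0.44 higher (adjusted p = 0.0057 and 0.0113). EIF2B1, the regulatory alpha subunit, fell in both lines, by 0.37 in Panc1 and by 0.19 in MiaPaCa2. EIF2B5, the catalytic subunit, fell by 0.14 in Panc1 (not called under median ratio scaling, -0.01), and EIF2B3 passed in neither line. The genes that start within 2 Mb of the 3 falling subunits were also mostly below the median of all genes in the MiaPaCa2 comparison: 40 of 45 around EIF2B2 (median -0.15), 39 of 47 around EIF2B4 (-0.24) and 36 of 43 around EIF2B1 (-0.13), and their part in these falls was not tested. Summed over the 5 subunits, the level was 103 ± 1.06 FPKM in Panc1 knockout and 116 ± 3.85 FPKM in wild-type libraries, and 99.4 ± 5.39 FPKM in MiaPaCa2 knockout and 116 ± 1.96 FPKM in wild-type libraries (SD, n = 3 each).

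eIF3, the large scaffold of the small subunit, showed no common direction in Panc1, with 6 of 14 genes higher, 6 lower and 2 not called. Of all genes, 21.8% were higher there and 41.6% lower. EIF3G, an RNA-binding subunit at the mRNA entry side, had 134, 147 and 143 FPKM in Panc1 knockout, against 104, 104 and 102 FPKM in wild-type (log2 change 0.45 ± 0.05 SE, adjusted p = 6.28e-06). EIF3F, EIF3L and EIF3I rose by 0.33, 0.29 and 0.21. EIF3A, the largest subunit, which holds the complex together, had 54.6, 50.3 and 48.1 FPKM in the knockout, against 73.3, 75.9 and 63.3 FPKM in wild-type (log2 change -0.46 ± 0.08 SE, adjusted p = 0.000167). The groups did not overlap for EIF3G or EIF3A, and both calls held after GC and length correction (0.35 and -0.28). EIF3E, EIF3J and EIF3M fell by 0.39, 0.37 and 0.33 as deposited, but after that correction their log2 changes were -0.10, -0.01 and -0.00, with adjusted p = 0.134, 0.77 and 0.993. EIF3B and EIF3K fell by 0.21 and 0.14, and neither was called under median ratio scaling (-0.07 and -0.00). Both these calls were also lost when knockout replicate 1 was left out, and that of EIF3K without wild-type replicate 2 (-0.12, adjusted p = 0.0599). EIF3C and EIF3CL, near-identical genes of the same subunit, had 2.10 and 2.08 FPKM in Panc1 knockout replicate 1 and followed each other in all libraries. Each rose by 0.23 in Panc1; the assignment of reads that fit both is not stated, so their low level is uncertain.

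In MiaPaCa2 3 of the 14 genes of eIF3 rose and 2 fell, where 17.8% of all genes rose and 16.3% fell. The rises include both near-identical genes EIF3C and EIF3CL. EIF3H, a subunit of the non-core module, had 90.6, 94.1 and 89.0 FPKM in the knockout, against 81.8, 71.1 and 82.2 FPKM in wild-type (log2 change 0.22 ± 0.05 SE, adjusted p = 0.00612). EIF3M had 210.3, 209 and 199 FPKM in the knockout, against 244, 239 and 243 FPKM in wild-type (log2 change -0.23 ± 0.05 SE, adjusted p = 0.00329), a fall seen in all alternatives. The groups did not overlap for either gene. EIF3D, which can bind the cap by itself, fell by 0.16 (adjusted p = 0.0182), which was lost in 5 alternatives, among them without wild-type replicate 1, knockout replicate 1 or knockout replicate 2 (adjusted p up to 0.0702). EIF3C and EIF3CL had a log2 change of 0.18 each (adjusted p = 0.0383), lost with any of the 6 MiaPaCa2 libraries left out (adjusted p of EIF3C 0.0552 to 0.0978).

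Of the 10 genes listed as cap-binding and scanning proteins, 1 rose and 4 fell in Panc1, and 3 rose and 3 fell in MiaPaCa2. Of all genes, 21.8% rose and 41.6% fell in Panc1, and 17.8% rose and 16.3% fell in MiaPaCa2. The 10 include EIF4A3, a helicase of the exon junction complex. EIF4B, which assists the helicase, had 108, 101 and 99.9 FPKM in Panc1 knockout, against 81.8, 79.9 and 82.2 FPKM in wild-type (log2 change 0.34 ± 0.04 SE, adjusted p = 2.03e-05). It had 66.1, 66.9 and 65.6 FPKM in the MiaPaCa2 knockout, against 61.9, 56.6 and 57.5 FPKM in wild-type (log2 change 0.17 ± 0.04 SE, adjusted p = 0.00743). EIF4B thus rose in both lines, in all alternatives. EIF4H, a relative of EIF4B with the same partner, fell by 0.33 in Panc1 (105.7, 98.8 and 103 FPKM in the knockout, against 130.3, 127 and 128 FPKM in wild-type) and did not pass in MiaPaCa2. EIF4E, the cap-binding protein, was low throughout, with 3.54, 3.11 and 2.88 FPKM in Panc1 knockout, against 4.28, 4.73 and 4.63 FPKM in wild-type (log2 change -0.41 ± 0.07 SE, adjusted p = 0.000266). That fall was not seen after GC and length correction (0.04, adjusted p = 0.518). EIF4ENIF1, the carrier of eIF4E into the nucleus, had 5.33, 5.61 and 5.37 FPKM in Panc1 knockout, against 7.06, 7.54 and 8.10 FPKM in wild-type (log2 change -0.41 ± 0.06 SE), and was called in all alternatives.

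EIF4A2 and EIF4G3, second forms of the helicase and of the scaffold, went in opposite directions in the lines as deposited. EIF4A2 had 231, 276 and 221 FPKM in the MiaPaCa2 knockout, against 203, 184 and 199 FPKM in wild-type (log2 change 0.31 ± 0.08 SE, adjusted p = 0.0113; without wild-type replicate 2 it was 0.26, adjusted p = 0.0503). In Panc1 it had 92.0, 83.6 and 78.2 FPKM in the knockout, against 102, 100.3 and 93.6 FPKM in wild-type (log2 change -0.22 ± 0.08 SE, adjusted p = 0.0296). The Panc1 call was lost without wild-type replicate 1 or 2 or knockout replicate 2 or 3 (adjusted p = 0.0728 to 0.124), and under median ratio scaling (-0.08, adjusted p = 0.368), and after GC and length correction the value was 0.09. Its ratio to EIF4A1, the main helicase, was 0.426 ± 0.095 in the MiaPaCa2 knockout and 0.317 ± 0.019 in wild-type libraries (SD, n = 3 each), with knockout replicate 2 highest at 0.535. EIF4G3 had a log2 change of 0.18 in MiaPaCa2 and -0.16 in Panc1; the first call was lost without wild-type replicate 2 or 3 or knockout replicate 1 or 2 (adjusted p = 0.0519 to 0.124), the second without wild-type replicate 1 or 2 or knockout replicate 1 or 3 (0.0579 to 0.152), and the second was 0.03 after GC and length correction. EEF1AKMT4 was the third member with opposite calls, so 3 of 57 had them, where 10.1% of all genes did.

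The remaining genes of this list changed in MiaPaCa2 alone or not at all as deposited, which is no test of a difference. EIF4G2 was called in neither line, but after GC and length correction it was called higher in Panc1 (0.20, adjusted p = 0.00571). With quantile scaling its change was lower in Panc1 than in MiaPaCa2 (-0.27, adjusted p = 0.00938). EIF4G1, the main scaffold, fell by 0.21 in MiaPaCa2 (196, 186 and 205 FPKM in the knockout, against 214, 237 and 229 FPKM in wild-type). EIF4A3, a helicase of the exon junction complex, fell by 0.28 there, and its change was 0.35 higher in Panc1 (adjusted p = 0.0131). EIF4E2, a cap-binding relative of EIF4E, had 29.2, 20.9 and 26.0 FPKM in the MiaPaCa2 knockout, against 30.7, 30.9 and 30.0 FPKM in wild-type (log2 change -0.27, adjusted p = 0.0333). That call was lost without knockout replicate 2 (-0.14, adjusted p = 0.0788) and without any 1 of the wild-type libraries (adjusted p = 0.0666 to 0.0849).

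EIF6, which keeps the large ribosomal subunit from joining too early and acts in its assembly, had 355, 375 and 360 FPKM in Panc1 knockout, against 250.02, 253 and 248 FPKM in wild-type (log2 change 0.53 ± 0.04 SE, adjusted p = 2.76e-07). In MiaPaCa2 it had 110, 100.2 and 107 FPKM in the knockout, against 109, 112 and 111 FPKM in wild-type (adjusted p = 0.227). The groups were far apart in Panc1 and overlapped in MiaPaCa2, and the difference between the lines was 0.60 (adjusted p = 3.5e-06). EIF5A, which frees ribosomes stalled on proline runs and carries the hypusine residue, had 491, 472 and 488 FPKM in Panc1 knockout, against 447, 446 and 480 FPKM in wild-type, and did not pass the test (adjusted p = 0.264). Its second form EIF5A2 had 5.31, 4.299 and 4.46 FPKM in Panc1 knockout, against 5.90, 6.04 and 5.72 FPKM in wild-type (log2 change -0.28 ± 0.06 SE, adjusted p = 0.00226). After GC and length correction the Panc1 value of EIF5A2 was 0.15 (adjusted p = 0.0717). In MiaPaCa2 EIF5A2 fell by 0.20 (adjusted p = 0.0296), lost with any library but knockout replicate 3 left out (adjusted p = 0.0503 to 0.0921). EIF5AL1, an intronless copy of EIF5A, was near 1 FPKM and passed in neither line.

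Of the 5 methyltransferases named for eEF1A, EEF1AKMT2 fell most in Panc1, with 6.64, 6.04 and 5.91 FPKM in the knockout, against 10.2, 9.16 and 9.57 FPKM in wild-type (log2 change -0.57 ± 0.08 SE, adjusted p = 3.58e-05). EEF1AKMT4 had 19.2, 15.0 and 18.0 FPKM in the MiaPaCa2 knockout, against 21.6, 21.3 and 23.3 FPKM in wild-type (log2 change -0.33 ± 0.08 SE, adjusted p = 0.00746). In Panc1 EEF1AKMT4 had a log2 change of 0.21 (adjusted p = 0.0332), a call lost without wild-type replicate 1 or 3 or any 1 knockout library (adjusted p = 0.0564 to 0.142) and after GC and length correction (0.173). The knockout change of EEF1AKMT4 was 0.54 higher in Panc1 than in MiaPaCa2 (adjusted p = 0.00148). EEF1AKMT3 rose by 0.25 in MiaPaCa2 (adjusted p = 0.0268; lost without wild-type replicate 2, 0.116, and without knockout replicate 3, 0.0862), EEF1AKNMT fell by 0.23 in Panc1 and by 0.13 in MiaPaCa2, the MiaPaCa2 call being lost with any of 5 MiaPaCa2 libraries left out (adjusted p up to 0.0889), and EEF1AKMT1 passed in neither line.

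Over all members, 9 rose and 15 fell in MiaPaCa2 (42.1%), where 34.1% of all genes were called, 17.8% as higher and 16.3% as lower. The members' median log2 change stood at -0.07 relative to all genes. Without wild-type replicate 2, 5 rose and 11 fell. Of the changes in Panc1, 5 rises and 7 falls were also called in MiaPaCa2 in the same direction; the rises were EEF1A1, EIF1, EIF4B, EIF3C and EIF3CL, and the falls EIF1AX, EIF5, EIF2S1, EIF2B1, EIF3M, EIF5A2 and EEF1AKNMT. Of all genes, 5% were called higher in both lines and 6.34% lower in both. The Panc1 calls of EIF5, EIF2S1, EIF3M and EIF5A2 were lost after GC and length correction, and EIF3C and EIF3CL are near-identical copies whose MiaPaCa2 calls were lost with single libraries left out. The knockout change was higher in Panc1 than in MiaPaCa2 for 20 members and lower for 16 by the test of that difference, where 20% of all genes were higher and 37.4% lower.

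**Figure D3:**
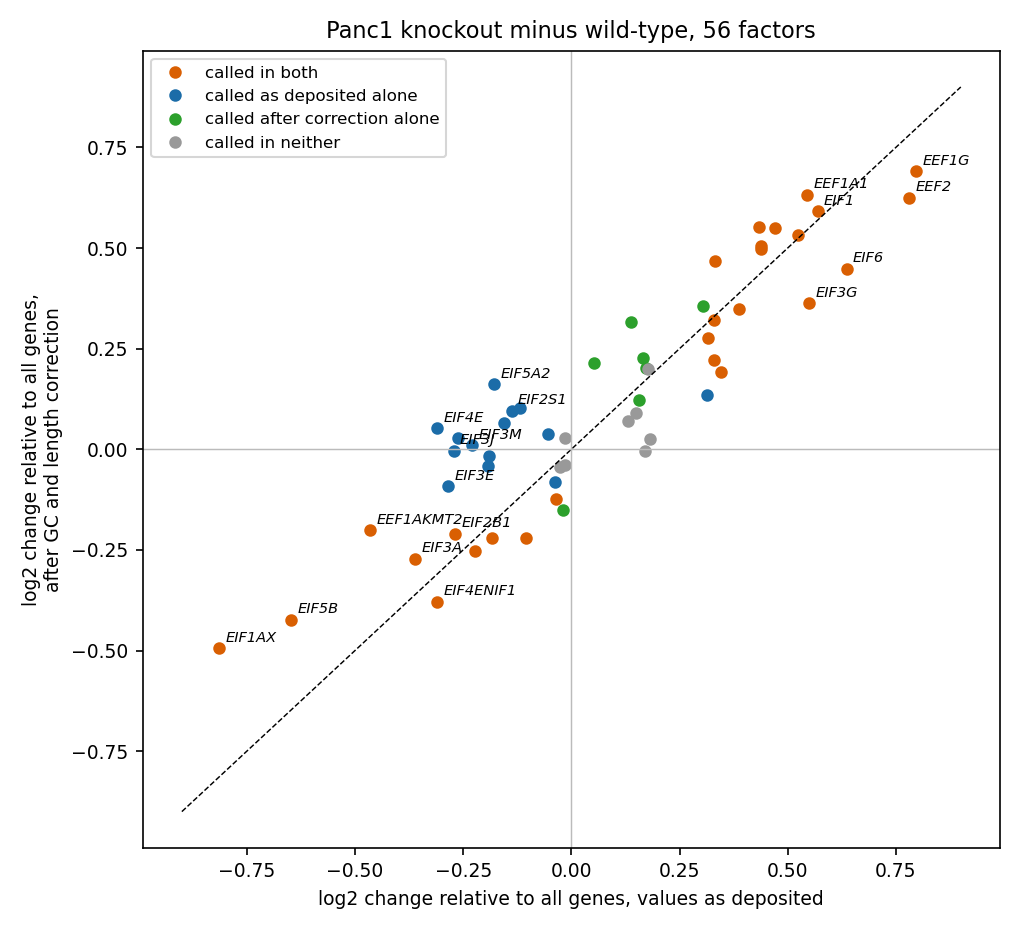
Panc1 log2 change (knockout minus wild-type) of 56 factors relative to the median of all genes, as deposited (x axis) and with GC content and length corrected within libraries (y axis); the dashed line marks equal values and colours the calls at an adjusted p below 0.05. The rises lie near the line, while EIF4E, EIF5A2, EIF2S1, EIF3J and EIF3M move up to about 0 or above it.

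The 12 members with a pyrimidine start held 6 that rose and 5 that fell in Panc1, with a median log2 change of 0.19. The 6 rises were called in all alternatives. The falls of EIF2A, EIF2S3, EIF3M and EIF4A2 were lost after GC and length correction, and that of EIF3K under median ratio scaling. The 33 members with another start in the table held 7 that rose and 16 that fell, with a median of -0.13. Among all 726 tested genes with such a start, 29.5% rose and 36.8% fell, and among the 9191 without it 21.4% rose and 44% fell. In MiaPaCa2 3 of the 12 rose and 2 fell, near the 22.7% and 17.6% of the 726 tested genes with such a start. A list of 10 members written from knowledge of TOP mRNAs, whose choice may have been shaped by earlier results of these data, had 7 that rose and 1 that fell in Panc1. Of all genes, 21.8% rose there and 41.6% fell. The annotated starts are RefSeq's, and those used in these cells were not measured; EEF1G, known as a TOP mRNA, has no run at its entry.

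Counts for the other genes of the pathway are to be read against all genes tested, of which 21.8% rose and 41.6% fell in Panc1, and 17.8% rose and 16.3% fell in MiaPaCa2. EIF4EBP1, which binds eIF4E and blocks cap-dependent initiation unless mTORC1 phosphorylates it, had 72.4, 74.8 and 67.7 FPKM in Panc1 knockout, against 32.6, 32.5 and 35.7 FPKM in wild-type (log2 change 1.07 ± 0.06 SE, adjusted p = 1.57e-08). In MiaPaCa2 it had 186, 203 and 192 FPKM in the knockout, against 193, 179 and 172 FPKM in wild-type, which overlap (adjusted p = 0.23), and the lines differed by 0.98 (adjusted p = 1.31e-06). The ratio of EIF4EBP1 to EIF4E in FPKM was 22.7 ± 1.93 in Panc1 knockout and 7.40 ± 0.457 in wild-type libraries, and 62.0 ± 6.53 in MiaPaCa2 knockout and 52.6 ± 3.24 in wild-type libraries (SD, n = 3 each). EIF4EBP3 rose by 0.39 in MiaPaCa2, and EIF4EBP2 passed in neither line. Of 12 tested kinases, phosphatases and outputs of the eIF2 and eEF2 branch, 3 rose and 4 fell in Panc1, and 4 rose and 3 fell in MiaPaCa2. ATF4, the transcription factor whose translation increases when eIF2 is phosphorylated, had 265, 247 and 217 FPKM in Panc1 knockout, against 109.9, 109.5 and 111 FPKM in wild-type (log2 change 1.13 ± 0.08 SE, adjusted p = 1.95e-07). It rose by 0.47 in MiaPaCa2, and DDIT3, one of its targets, rose by 0.76 in Panc1 and by 0.82 in MiaPaCa2.

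Of 13 tested genes of mTORC1 and the eIF4E kinases, 4 rose and 4 fell in Panc1, and 4 rose and 1 fell in MiaPaCa2. RHEB, the GTPase that activates mTORC1, had 41.5 ± 1.62 FPKM in Panc1 knockout and 60.9 ± 1.80 FPKM in wild-type libraries (SD, n = 3 each; log2 change -0.54 ± 0.04 SE), while MKNK2, a kinase of eIF4E, rose by 0.48. LARP1, chosen after its values were seen because it binds TOP mRNAs, fell by 0.31 in Panc1 (55.7 ± 1.71 FPKM in the knockout and 69.2 ± 1.34 FPKM in wild-type) and rose by 0.20 in MiaPaCa2 (76.3 ± 0.92 FPKM in the knockout and 66.1 ± 1.66 FPKM in wild-type; SD, n = 3 each). PDCD4, an inhibitor of eIF4A, and TSC1, an inhibitor of mTORC1, rose by 0.29 and 0.27 in MiaPaCa2. Among 8 genes of termination, recycling and rescue none rose and 7 fell in Panc1 (41.6% of all genes fell there), led by GSPT2 (-0.48) and MCTS1 (-0.40); 1 rose and 2 fell in MiaPaCa2, the falls being ABCE1 and DENR (ABCE1 not without wild-type replicate 3, adjusted p = 0.0607). After GC and length correction ABCE1 and DENR were instead called higher in Panc1 (0.10 and 0.12, adjusted p = 0.044 and 0.0138). Among 9 mitochondrial translation factors 1 rose in Panc1, TUFM by 0.37, and 7 fell, led by GFM1 (-0.50) and GFM2 (-0.46); in MiaPaCa2 4 rose and 1 fell, MTIF2 by 0.67. Of 4 tested poly(A)-binding proteins and partners 1 rose and 2 fell in Panc1, with PAIP1 at -0.44 and PAIP2 at -0.28, and PABPC4 fell by 0.18 in MiaPaCa2. Of 10 genes that modify eIF5A or eEF2, 1 rose and 2 fell in Panc1 (DPH1 0.28, DNAJC24 -0.65), and DPH2 fell by 0.18 in MiaPaCa2, a call lost without wild-type replicate 3 (adjusted p = 0.111) or knockout replicate 2 (0.0784).

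Between the wild-type lines, 20 members were higher in Panc1 than in MiaPaCa2 and 27 were lower, in a comparison that called 82.7% of all genes, 41.8% as higher and 40.9% as lower. At least 2-fold apart and called were 9 members (15.8%), where 24.9% of all genes were. EIF3K, a small peripheral subunit of eIF3, had 745, 781 and 772 FPKM in Panc1 wild-type, against 153, 144 and 146 FPKM in MiaPaCa2 wild-type libraries (log2 difference 2.37 ± 0.04 SE, adjusted p = 3.58e-14). It stood at 6.62 times the median level of the eIF3 subunits in Panc1 and at 1.31 times in MiaPaCa2, with EIF3C and EIF3CL left out. EIF4G2, a scaffold without the eIF4E site, had 746, 768 and 792 FPKM in Panc1, against 271, 294 and 300.5 FPKM in MiaPaCa2 (log2 difference 1.41), and EIF6 was 1.17 higher. EIF3M had 73.8, 75.6 and 75.0 FPKM in Panc1, against 244, 239 and 243 FPKM in MiaPaCa2 (log2 difference -1.68 ± 0.05 SE), the largest difference in that direction. EIF1AX (-1.53), EEF1AKMT4 (-1.40), EIF2S3 (-1.34), EEF2 (-1.15) and EEF1AKMT1 (-1.05) were the others lower in Panc1.

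**Figure D4:**
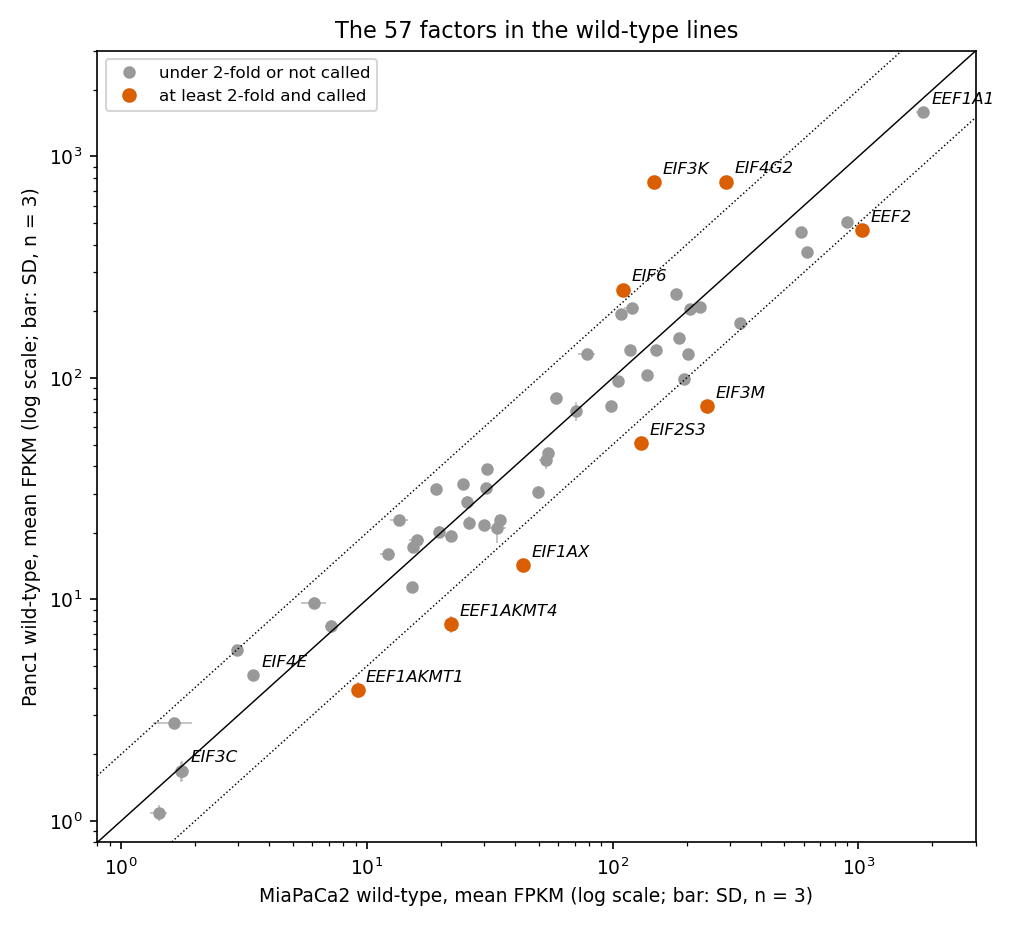
Mean FPKM of the 57 factors in Panc1 wild-type (y axis, log) against MiaPaCa2 wild-type (x axis, log), with SD bars (n = 3); the solid line marks equal levels and the dotted lines a 2-fold difference. The 9 coloured members are at least 2-fold apart and called, with EIF3K and EIF4G2 above the line and EIF3M, EIF1AX and EIF2S3 below it.

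EIF3K lies on chromosome 19 (GRCh37, 39109722 to 39127595). The 77 other tested genes that start within 2 Mb of it had a median difference of 1.14 in log2 between wild-type Panc1 and wild-type MiaPaCa2 relative to all genes, and 7 of them were below 0. As plain log2 differences ACTN4 stood at 2.58, PAF1 at 4.63 and PLEKHG2 at 5.34; these neighbours were chosen after their values were seen. EIF3K was thus higher in Panc1 together with the genes around it. The 25 genes around EIF4G2 had a median of 1.04 and the 31 around EIF3F, itself 0.84 higher, a median of 0.81. The neighbours of EIF6 and EIF3M had medians of 0.18 and 0.43. EIF1AX and EIF2S3 on the X chromosome had neighbour medians of -0.90 over 13 genes and -0.65 over 8 genes. The medians around EEF2, EEF1AKMT1 and EEF1AKMT4 were -0.41 over 81 genes, -0.37 over 17 and -0.32 over 33. Around EIF1AX (GRCh37, 20142643 to 20159956) 12 of the 13 genes were also below the median of all genes in the Panc1 knockout comparison, with a median of -0.37. Of the 81 genes around EEF2, 12 were below it in that comparison, with a median of 0.24, where EEF2 stood at 0.78. The medians around EEF1G and EEF1A1 were 0.04 and 0.08. DNA copy number was not measured, and its part in these differences was not tested.

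**Figure D5:**
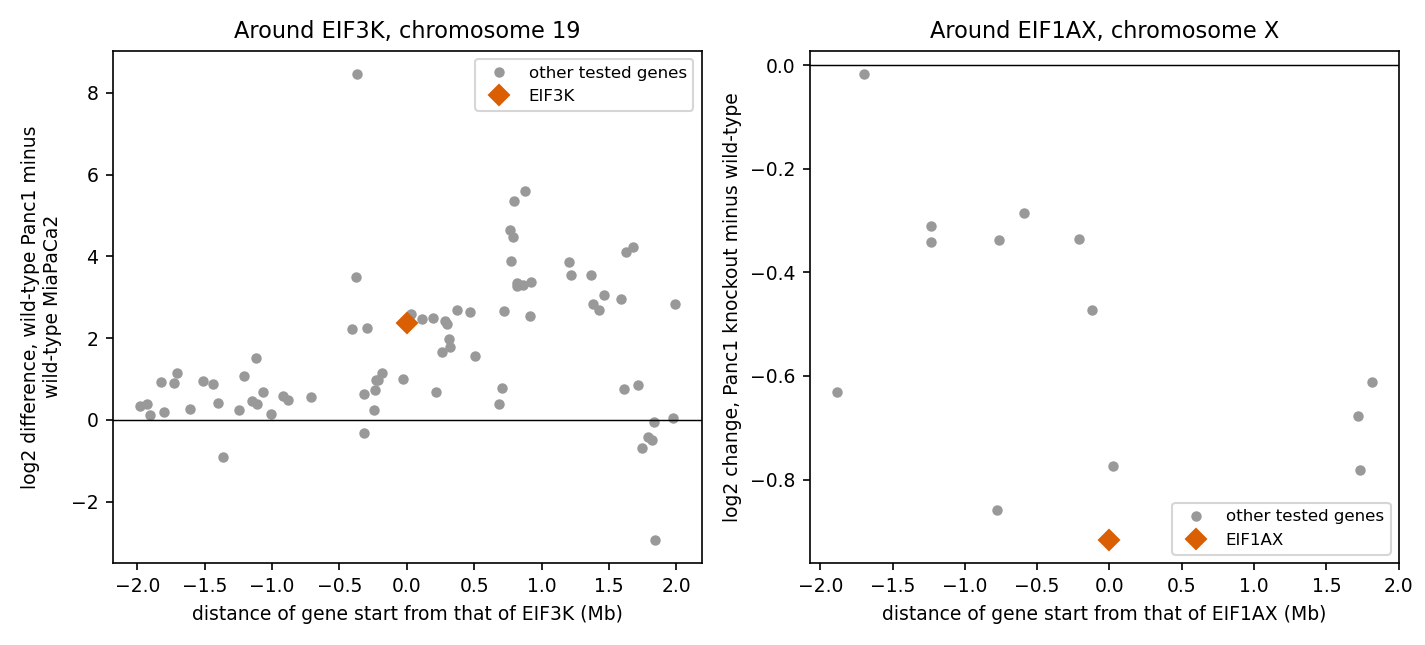
Tested genes within 2 Mb of EIF3K (left; log2 difference of wild-type Panc1 minus wild-type MiaPaCa2) and of EIF1AX (right; log2 change of Panc1 knockout minus wild-type), by the distance of their starts in Mb. EIF3K at 2.37 lies within a run of genes higher in Panc1, and EIF1AX at -0.92 lies below all 13 neighbours.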

How the data were processed

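RNA was sequenced on a BGISEQ-500 in 12 libraries of 4 groups. FPKM values per gene symbol were deposited by the authors; TopHat2 2.0.14 and STAR 2.5.2a are named in the submitters' processing notes, with the hg19 build. Strandedness and the treatment of reads with several matches are not stated, and without read counts depth is unknown. Here log2(FPKM + 1) was fitted with limma 3.58.1 (R 4.3.3) as 4 group means with a mean-variance trend, over the 13340 genes that averaged 1 FPKM or more in either line, with Benjamini-Hochberg adjusted p below 0.05 as a call. The fit was tested on simulated data with few changed genes and no shift of all genes, a setting unlike the Panc1 comparison. Alternatives were a pseudocount of 0.1, no filter or one of 5 FPKM, TPM scale, median ratio and quantile scaling, loess correction for GC content and length (12441 genes), no trend, the compared groups alone, a replicate block and each library left out. Deviations from the group means correlated weakly between same-numbered libraries (r = -0.165 to 0.0777), which cannot tell whether these were prepared together. The main fit did not pair them. Members and lists were chosen with earlier results of these data known. Genes given with full values were, by rule, the largest changes in each line, each role and each pathway list, the most abundant members, the largest differences between wild-type lines and the members next to the level limit; other members complete the account of their role, and LARP1 and TUFM lie outside the rule. Positions are from GENCODE 44 on GRCh37, start sequences from RefSeq on GRCh38.p14. Figures were drawn with matplotlib 3.10.9.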

Additional observations from a re-analysis of the deposited data

Results flagged for a closer look

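The results below are all 20 factors with a higher and 16 with a lower Panc1 change, and those of the pathway genes named in the report, for which the knockout change differed between the lines by the limma test of that difference, given as the Panc1 change minus the MiaPaCa2 change in log2. Of all genes, 57.4% passed this test.

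Among the factors, the Panc1 change was the lower of the pair for EIF1AX (-0.71), EIF4A2 (-0.53), EIF3A (-0.51), EIF3E (-0.48), EIF4ENIF1 (-0.46), EIF2S3 (-0.40), EEF1AKMT2 (-0.38), EEF1AKMT3 (-0.36), EIF3J (-0.36), EIF1AD (-0.35), EIF4G3 (-0.34), EIF4E (-0.31), EIF4H (-0.31), EEF1E1 (-0.31), EIF3H (-0.18) and EIF2B1 (-0.18). It was the higher for EEF2 (0.61), EIF6 (0.60), EEF1G (0.59), EIF3G (0.54), EEF1AKMT4 (0.54), EIF2S2 (0.48), EIF4E2 (0.47), EEF1B2 (0.46), EIF2B4 (0.44), EIF2D (0.37), EIF4A3 (0.35), EIF3F (0.32), EIF2B2 (0.31), EIF3I (0.30), EEF1D (0.27), EEF1A2 (0.26), EIF3L (0.24), EIF3D (0.21), EEF1A1 (0.17) and EIF4B (0.16). The differences of EEF1A1, EEF1E1, EIF3H and EIF4E were lost in several alternatives. With median ratio scaling 26 members had a higher and 8 a lower Panc1 change in this test. After GC and length correction these were 27 and 8, so further lower differences than those named were lost there.

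Among the named genes of the pathway, the Panc1 change was the lower for GFM1 (-0.72), DNAJC24 (-0.70), GFM2 (-0.67), RHEB (-0.60), LARP1 (-0.51), MCTS1 (-0.49), PAIP1 (-0.43), GSPT2 (-0.42), TSC1 (-0.31) and PAIP2 (-0.30). It was the higher for EIF4EBP1 (0.98), ATF4 (0.66), MTIF2 (0.50), MKNK2 (0.45), TUFM (0.43), DPH1 (0.28), DPH2 (0.25) and PABPC4 (0.15). ASAP2 itself differed by -1.23; its mRNA was lower in Panc1 knockout libraries, while the MiaPaCa2 groups overlapped.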

How the results depend on the processing

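Of the pairs of a named gene and an alternative, 4997 kept direction and side of the threshold, 197 lost the call, 71 gained one and 22 changed sign; where no construction of the alternative shows it, the cause was not tested. The member median relative to all genes in Panc1 was 0.0767 with a pseudocount of 0.1, -0.0434 with no filter, 0.0233 with a filter of 5 FPKM, 0.0844 with median ratio, -0.0317 with quantile scaling and 0.0931 after GC and length correction. Falls in Panc1 numbered 15 with median ratio and 11 after GC and length correction, and members with a lower Panc1 change in the test between lines 8 under each. Over all genes, median ratio gave 4271 higher and 3922 lower in Panc1, against 2910 and 5556. In MiaPaCa2 5 rose with no filter, and 5 rose and 9 fell with the compared groups alone; the median was -0.0185 with quantile scaling. The median of the difference between lines was 0.0583 with no filter and 0.0503 with quantile scaling, and that of the wild-type lines 0.0403 with quantile scaling and -0.0733 after GC and length correction. With the replicate block, 18 rose and 24 fell in Panc1 and 7 rose and 13 fell in MiaPaCa2; not every knockout library correlated best with its own number.

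With each library left out in turn, Panc1 had 17 to 19 rises, 21 to 25 falls and a median of 0.0248 to 0.0745, and MiaPaCa2 5 to 9 rises, 10 to 15 falls and a median of -0.0723 to -0.0339. The test between lines gave 18 to 21 higher, 13 to 17 lower and a median of 0.1218 to 0.1853, and the wild-type lines 18 to 20 higher, 25 to 29 lower and a median of -0.1377 to -0.0862.

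After GC and length correction the Panc1 changes that turned sign were ABCE1 0.0975, DENR 0.1183, EEF1E1 0.0178, EIF2S1 0.0852, EIF4A2 0.0923, EIF4E 0.0415, EIF4G2 0.2025, EIF4G3 0.0262, EIF5A2 0.1502 and PAIP2 0.0491, and the differences between lines were ABCE1 0.3264, DENR 0.3115, EEF1E1 0.0658, EIF3H 0.1015, EIF3M 0.247, EIF4E 0.1432, EIF5A2 0.3564, PAIP2 0.0269 and PDCD4 0.2427. Of these Panc1 changes, ABCE1, DENR and EIF4G2 were called higher after the correction (adjusted p = 0.044, 0.0138 and 0.00571). The differences between lines of ABCE1, DENR, EIF3M, EIF5A2 and PDCD4 were also called there, as higher in Panc1. Quantile scaling gave EIF5A -0.1532 in Panc1 (adjusted p = 0.0122) and EIF4G2 -0.2656 between lines (0.00938). Median ratio gave PABPC4 0.1078 in Panc1 (adjusted p = 0.033). Without counts, the precision of low members such as EIF5AL1, EIF3C and EIF4E rests on the spread of 3 libraries.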
